A study of Homo sapiens with 15 samples.

Results

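The genes around SNRPD2 are the 50 protein-coding genes of chromosome 19 whose start coordinate lies between 45000000 and 46700000 on hg38 and which stand in both count tables. SNRPD2 itself (ENSG00000125743.11, chr19:45687460-45692569, minus strand) was left out. The window holds 56 protein-coding genes, and the other 5 (NANOS2, IGFL4, CCDC8, PNMA8C and PNMA8B) stand in the HEK293T table alone. The tables hold 35595 genes for HuCCT1 and 62703 for HEK293T. The neighbours were chosen by position, 25 on the side of lower coordinates and 25 on the side of higher ones. Measured from gene start to gene start, they run from 691.108 kb on the lower side to 1024.56 kb on the higher side.

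Total RNA depleted of ribosomal RNA was sequenced from bulk cultures of 2 human cell lines, 15 libraries in all. HuCCT1, a line from a human bile duct carcinoma, was profiled with SNRPD2 targeted by CRISPR-Cas9 (genotype SNRPD2KO) and as Ctrl. HEK293T, a line from human embryonic kidney that carries the SV40 large T antigen, was profiled as SNRPD2KO, as PUS7KO and as Ctrl, with CRISPR-Cas9 used for both knockouts. Each of the 5 groups has 3 libraries. The labels do not say whether a knockout is a clone or a pool, what the Ctrl cells received, or whether replicates came from separate cultures, so p-values measure the spread between these libraries, which may be technical.

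SMD2, the product of SNRPD2, is one of the Sm proteins that form a ring on spliceosomal small nuclear RNAs. PUS7 is an enzyme that turns uridine into pseudouridine in RNA. Genes that lie close together can share promoter DNA, enhancers or open chromatin, and genes that start head to head on opposite strands often share one promoter region that is read both ways. The stretch around SNRPD2 is dense in genes. It holds nucleotide excision repair genes (ERCC1, ERCC2), the kinase gene whose repeat expansion causes myotonic dystrophy (DMPK), transcription factors and cytoskeletal genes. The comparison asks how the RNA levels of these genes changed with their distance from the edited gene.

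The targeted gene went against its label. SNRPD2 stood at 259.9, 286 and 319 CPM (counts scaled to library size) in HuCCT1 libraries labelled SNRPD2KO, against 159.9, 146 and 157 CPM in HuCCT1 Ctrl libraries. In HEK293T it stood at 309, 286 and 246 CPM in libraries labelled SNRPD2KO and at 266, 236 and 279.6 CPM in PUS7KO libraries, against 196, 169 and 182 CPM in Ctrl libraries. The libraries labelled SNRPD2KO were thus higher than every Ctrl library of their line, with log2 fold changes of 0.90 ± 0.07 (adjusted p = 1.8e-06) in HuCCT1 and 0.62 ± 0.10 (adjusted p = 4.9e-05) in HEK293T. The PUS7KO libraries were also higher than every HEK293T Ctrl library (0.52, adjusted p = 0.00034). SNRPD2KO minus PUS7KO was 0.11 (adjusted p = 0.56). Gene counts do not show whether the RNA carries a frameshift, and every direction below is that of libraries as labelled. Adjusted p-values here and below come from edgeR's quasi-likelihood test with Benjamini-Hochberg adjustment over all genes tested, log2 fold changes stand with their standard errors, and a gene rose or fell where the adjusted p was below 0.05.

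Library totals ran from 13776166 to 16795618 counts in HuCCT1 and from 7944276 to 11270267 in HEK293T, and all 3 HEK293T Ctrl libraries were smaller than every knockout library of that line. The line markers matched the labels. All 6 epithelial markers reached 1 CPM in every HuCCT1 library (summed 10650 to 11860 CPM), against 3 of 6 in HEK293T (summed 90.0 to 131.7 CPM), and all 6 HEK293T markers reached it in every HEK293T library (summed 191.8 to 268.4 CPM), against 1 of 6 in HuCCT1 (summed 3.21 to 9.58 CPM). In bulk RNA, fewer cells of a type and less RNA per cell cannot be told apart.

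QPCTL (chr19:45692403-45703989, plus strand) is the closest neighbour, and its promoter window overlaps that of SNRPD2. It encodes a Golgi glutaminyl cyclase, which forms pyroglutamate at protein N-termini, CD47 among its substrates. QPCTL and SNRPD2 run head to head on opposite strands, and in the tables' coordinates their spans overlap by 167 bases, with 0 bases of shared exon in the GENCODE 29 basic annotation. A second pair, PPP1R13L and POLR1G, starts 295 bases apart. The 2 pairs are printed because their promoter windows (300 bases, from 250 before to 50 after the RefSeq start, GRCh38.p14, read 5′ to 3′ on the strand of each gene) share DNA. Capitals mark the bases that both windows of a pair cover, 151 for SNRPD2 and QPCTL and 218 for PPP1R13L and POLR1G. The SNRPD2 window lies at chr19:45692267-45692566, minus strand, and the QPCTL window at chr19:45692416-45692715, plus strand. The PPP1R13L window lies at chr19:45406312-45406611, minus strand, and the POLR1G window at chr19:45406394-45406693, plus strand.
SNRPD2: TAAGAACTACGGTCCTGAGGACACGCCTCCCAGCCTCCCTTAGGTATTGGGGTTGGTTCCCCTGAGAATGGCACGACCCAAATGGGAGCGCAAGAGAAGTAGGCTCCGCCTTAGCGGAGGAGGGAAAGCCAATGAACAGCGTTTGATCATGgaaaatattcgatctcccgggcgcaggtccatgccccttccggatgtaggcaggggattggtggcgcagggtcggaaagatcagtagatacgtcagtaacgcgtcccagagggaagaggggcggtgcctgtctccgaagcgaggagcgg
QPCTL: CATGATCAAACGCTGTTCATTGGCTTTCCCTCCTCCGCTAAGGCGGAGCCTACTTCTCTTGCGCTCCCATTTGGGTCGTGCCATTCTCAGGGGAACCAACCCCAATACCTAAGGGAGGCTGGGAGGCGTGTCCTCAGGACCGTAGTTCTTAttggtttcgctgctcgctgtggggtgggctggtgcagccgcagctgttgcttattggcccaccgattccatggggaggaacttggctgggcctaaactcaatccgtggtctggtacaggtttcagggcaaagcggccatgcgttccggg
PPP1R13L: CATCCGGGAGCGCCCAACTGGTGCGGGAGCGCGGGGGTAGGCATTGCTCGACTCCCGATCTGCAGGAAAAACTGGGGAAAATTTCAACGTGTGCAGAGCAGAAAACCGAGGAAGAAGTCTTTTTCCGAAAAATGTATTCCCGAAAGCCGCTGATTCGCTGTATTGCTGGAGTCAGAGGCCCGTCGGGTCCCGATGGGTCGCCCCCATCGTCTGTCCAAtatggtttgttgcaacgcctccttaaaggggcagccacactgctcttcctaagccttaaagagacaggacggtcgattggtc
POLR1G: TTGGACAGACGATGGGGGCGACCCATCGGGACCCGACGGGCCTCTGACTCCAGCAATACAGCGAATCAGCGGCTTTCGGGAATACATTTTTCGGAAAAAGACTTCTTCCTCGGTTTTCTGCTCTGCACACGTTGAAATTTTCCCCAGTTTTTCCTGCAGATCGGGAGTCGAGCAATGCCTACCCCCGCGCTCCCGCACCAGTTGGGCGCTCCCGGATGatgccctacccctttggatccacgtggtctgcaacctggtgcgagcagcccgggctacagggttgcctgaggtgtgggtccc
The word CCAAT, the core of a common promoter element, was counted on both strands. It occurred 3 times in the SNRPD2 window, 4 times in that of QPCTL, 2 times in that of PPP1R13L and 0 times in that of POLR1G. The POLR1G window begins inside a PPP1R13L match and cuts it, so its count of 0 depends on the window's edge. Of all 35116 RefSeq windows of this length 34.6% hold it, and 29 of the 59 windows of neighbours do (49.2%). Counted by gene, 23 of the 42 neighbours with a window hold it in any of their windows (54.8%), a unit unlike the share over windows. A match of letters is a description and not a binding site.

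QPCTL rose in both lines. It had 16.9, 13.3 and 16.3 CPM in HuCCT1 libraries labelled SNRPD2KO, against 4.32, 3.96 and 4.04 CPM in HuCCT1 Ctrl libraries. In HEK293T it had 5.47, 5.61 and 5.55 CPM in libraries labelled SNRPD2KO and 5.06, 5.76 and 7.08 CPM in PUS7KO libraries, against 1.82, 2.85 and 2.39 CPM in Ctrl libraries. No knockout library overlapped a Ctrl library of its line. The log2 fold change was 1.92 ± 0.14 (adjusted p = 6.2e-07) in HuCCT1 and 1.24 ± 0.23 (adjusted p = 0.00031) in HEK293T libraries labelled SNRPD2KO, and that of PUS7KO was 1.34 ± 0.23 (adjusted p = 0.00017). The PUS7KO libraries, labelled with another target, gave a value of similar size. The difference between them, SNRPD2KO minus PUS7KO, was -0.10 with a 95% interval of -0.54 to 0.33. Between the lines the response differed by 0.63 ± 0.27 (adjusted p = 0.066), HuCCT1 minus HEK293T, which did not pass the threshold. It passed without HEK293T Ctrl replicate 1 (0.79, adjusted p = 0.033) or HuCCT1 SNRPD2KO replicate 2 (0.73, adjusted p = 0.04) and with the genome-wide trend of fold change on GC content removed (0.86, adjusted p = 0.015).

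EML2 (chr19:45606994-45645602, minus strand), which encodes a microtubule-binding protein and starts 46.967 kb on the lower side, also rose in both lines. It had 25.2, 27.1 and 27.7 CPM in HuCCT1 libraries labelled SNRPD2KO, against 14.4, 10.7 and 11.4 CPM in HuCCT1 Ctrl libraries. HEK293T gave 37.7, 35.1 and 35.9 CPM in libraries labelled SNRPD2KO and 43.1, 38.9 and 46.4 CPM in PUS7KO libraries, against 15.1, 11.0 and 9.09 CPM in Ctrl libraries. All knockout libraries stood above all Ctrl libraries of their line. The log2 fold changes were 1.13 ± 0.11 (adjusted p = 8.4e-06) in HuCCT1, 1.62 ± 0.14 (adjusted p = 1.4e-07) in HEK293T SNRPD2KO and 1.86 ± 0.14 (adjusted p = 4.5e-08) in PUS7KO.

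OPA3, a gene for a mitochondrial protein that is mutated in hereditary optic atrophy, starts 90.357 kb on the lower side. It had 51.9, 53.6 and 52.3 CPM in HuCCT1 libraries labelled SNRPD2KO, against 30.4, 30.2 and 26.3 CPM in HuCCT1 Ctrl libraries. In HEK293T it had 26.6, 29.3 and 24.2 CPM in libraries labelled SNRPD2KO and 25.5, 20.9 and 21.9 CPM in PUS7KO libraries, against 16.7, 16.7 and 17.6 CPM in Ctrl libraries. OPA3 rose in each, by 0.86 ± 0.07 (adjusted p = 2.1e-06), 0.65 ± 0.12 (adjusted p = 0.00019) and 0.42 ± 0.12 (adjusted p = 0.0072) on the log2 scale. GPR4, a proton-sensing receptor, lies inside the OPA3 span on the same strand and shares 114 exon bases with it. GPR4 had too few counts to test in either line, as had the unnamed gene ENSG00000268434, which shares exon bases with DMPK and DMWD. GIPR, the receptor for the incretin GIP, starts 24.348 kb away and did not pass the test. It had 2.92, 2.26 and 3.75 CPM in HuCCT1 libraries labelled SNRPD2KO, against 2.80, 1.52 and 1.65 CPM in HuCCT1 Ctrl libraries, groups that overlap. Its log2 fold change was 0.57 ± 0.29 (adjusted p = 0.12) in HuCCT1 and -0.33 ± 0.40 (adjusted p = 0.5) in HEK293T libraries labelled SNRPD2KO. In HuCCT1 1 library decides the call: without Ctrl replicate 1 the value was 0.90 (adjusted p = 0.029).

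On the higher side, FBXO46 (an F-box protein that selects targets for ubiquitin ligases) starts 38.327 kb away. It had 25.1, 22.5 and 21.7 CPM in HuCCT1 libraries labelled SNRPD2KO, against 10.7, 13.0 and 11.6 CPM in HuCCT1 Ctrl libraries. HEK293T gave 18.8, 17.7 and 16.8 CPM in libraries labelled SNRPD2KO and 16.0, 16.5 and 15.6 CPM in PUS7KO libraries, against 11.7, 13.4 and 14.1 CPM in Ctrl libraries. FBXO46 rose with SNRPD2KO in HuCCT1 (0.97 ± 0.10, adjusted p = 1.3e-05) and in HEK293T (0.44 ± 0.12, adjusted p = 0.0054), and its PUS7KO value was 0.30 ± 0.12 (adjusted p = 0.051). With the trend of fold change on GC content removed, the HEK293T value was 0.10 (adjusted p = 0.50). MEIOSIN, known in mouse as a transcriptional regulator of entry into meiosis, had 2.04, 1.21 and 1.37 CPM in HEK293T libraries labelled SNRPD2KO and 1.53, 0.668 and 0.833 CPM in PUS7KO libraries, against 0.536, 0.343 and 0.227 CPM in Ctrl libraries. Its log2 fold change of 2.01 ± 0.50 (adjusted p = 0.0029) rests on few counts, and at most 0.119 CPM was seen in a HuCCT1 library, where it was not tested. A floor of 3 counts equals 0.179 to 0.218 CPM in HuCCT1 libraries and 0.266 to 0.378 CPM in HEK293T libraries.

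SIX5, a homeobox transcription factor, had 6.65, 6.59 and 6.74 CPM in HuCCT1 libraries labelled SNRPD2KO, against 4.57, 5.60 and 3.29 CPM in HuCCT1 Ctrl libraries. It rose in HuCCT1 by 0.56 ± 0.19 (adjusted p = 0.028) on the log2 scale, a call lost without SNRPD2KO replicate 2 or 3 or without Ctrl replicate 1 or 3 (adjusted p of 0.055 to 0.096) and with the GC trend removed (adjusted p = 0.08). In HEK293T libraries labelled SNRPD2KO it was at 0.73 ± 0.31 (adjusted p = 0.06), and the libraries spread from 2.39 to 5.26 CPM. DMPK (chr19:45769709-45782552, minus strand), 89.983 kb away, moved in opposite directions in the lines. It had 7.34, 7.60 and 8.14 CPM in HuCCT1 libraries labelled SNRPD2KO, against 5.53, 4.08 and 3.89 CPM in HuCCT1 Ctrl libraries. In HEK293T it had 3.43, 2.53 and 3.84 CPM in libraries labelled SNRPD2KO and 1.81, 2.25 and 2.19 CPM in PUS7KO libraries, against 5.47, 5.14 and 6.14 CPM in Ctrl libraries. DMPK rose in HuCCT1 (0.77 ± 0.17, adjusted p = 0.0026) and fell in HEK293T with SNRPD2KO (-0.76 ± 0.23, adjusted p = 0.01) and with PUS7KO (-1.41 ± 0.24, adjusted p = 0.00015). Without HEK293T SNRPD2KO replicate 2 its SNRPD2KO value was -0.59 (adjusted p = 0.059).

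**Figure D1:**
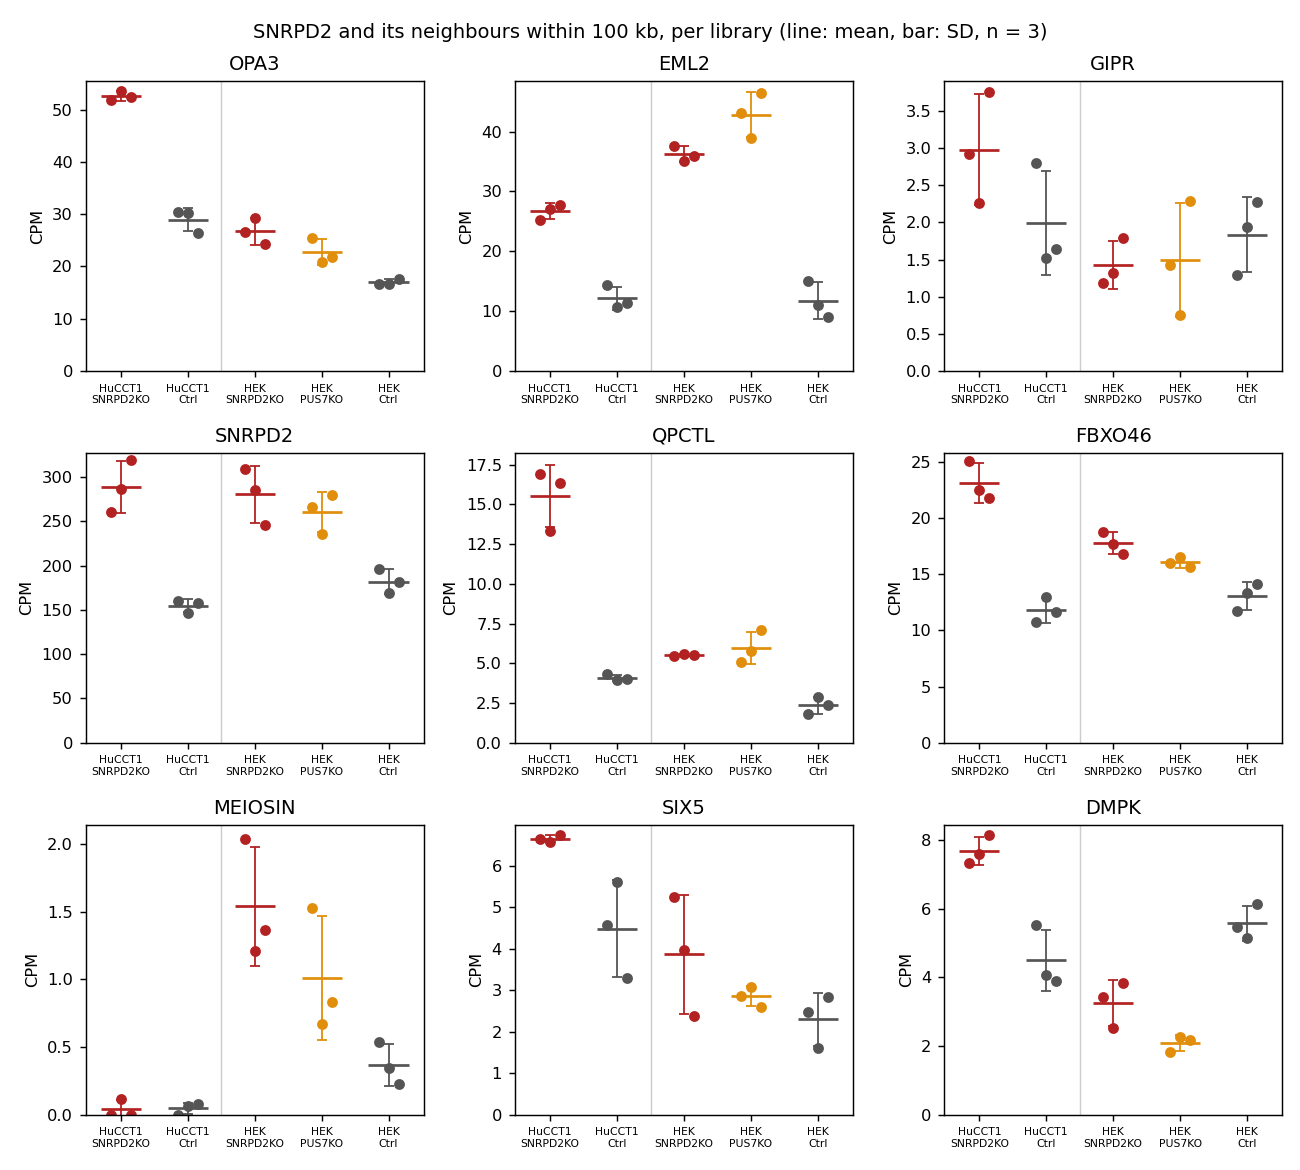
CPM of SNRPD2 and of the 8 tested neighbours within 100 kb in each library, with HuCCT1 groups left of the grey line and HEK293T groups right of it; points are libraries, lines group means and bars SD (n = 3). QPCTL, EML2 and OPA3 stand above every Ctrl library in all 3 knockout groups, while DMPK is higher with SNRPD2KO in HuCCT1 and lower with both knockouts in HEK293T.

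All 50 neighbours are accounted for. Of them 34 passed the filter on low counts in HuCCT1, 38 in HEK293T and 33 in both. In neither line were 11 tested (EXOC3L2, CKM, GPR4, ENSG00000268434, RSPH6A, PGLYRP1, IGFL3, IGFL2, HIF3A, PTGIR and GNG8). The untested neighbours had 0 to 12 counts per library in HuCCT1 and 0 to 9 in HEK293T. NKPD1, MEIOSIN, NOVA2, PNMA8A and DACT3 were tested in HEK293T alone. IGFL1, a member of the insulin growth factor-like family, had 94 to 145 counts per library in HuCCT1 and 0 in every HEK293T library. PNMA8A, of the paraneoplastic Ma antigen family, showed the reverse, with 0 to 2 counts in HuCCT1 and 519 to 750 in HEK293T.

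In HuCCT1 the neighbours were mostly higher in libraries labelled SNRPD2KO. Of the 34 tested, 19 rose and 6 fell, so that 73.5% changed. Of all 15007 genes tested 57.2% changed, 28.8% upward and 28.4% downward. Of all protein-coding genes tested 63.8% changed, 32.7% upward and 31.1% downward. Of the other protein-coding genes of chromosome 19 61.0% changed, 34.2% upward and 26.8% downward. The median log2 fold change was 0.48 over the neighbours, against 0.10 over the other protein-coding genes of chromosome 19 and 0.00 over all genes tested. The 25 neighbours that changed were also those whose groups of libraries did not overlap, 19 higher and 6 lower. Of all genes 63.5% had groups that did not overlap, 31.9% higher and 31.6% lower. That share was 69.5% for all protein-coding genes and 65.5% for the other protein-coding genes of chromosome 19. These shares describe the neighbours and are not a test of them as a set.

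The HuCCT1 change declined with distance in part, and the order of the classes depended on their limits. Within 100 kb 6 of the 7 tested neighbours rose, with a median log2 fold change of 0.86. Between 100 and 300 kb 7 rose and 4 fell of 12 (median 0.58). Between 300 and 600 kb 2 of 6 rose (CCDC61 and ERCC2) and the median was 0.11, and beyond 600 kb 4 rose and 2 fell of 9 (median 0.20). SNRPD2 itself, at 0.90, lay close to the median of its nearest class. With limits of 50, 200 and 500 kb the medians were 1.05, 0.56, 0.90 and 0.04 from near to far. The Spearman correlation of log2 fold change with log10 distance was -0.41 over 34 genes that share the same libraries, given as a description. Without genes that overlap any other gene it was -0.11 over 7 genes. Neighbours farther than 100 kb with values above 0.86 were MYPOP, FOSB, CCDC61, ERCC2 and CALM3, which rose, and PPM1N, which did not pass the test. The 4 that fell between 100 and 300 kb were FOXA3, VASP, IRF2BP1 and POLR1G. The lower side had a median of 0.27 (9 rose, 4 fell of 21) and the higher side of 0.56 (10 rose, 2 fell of 13).

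In HEK293T libraries labelled SNRPD2KO 17 of the 38 tested neighbours rose and 3 fell. That is 52.6%, and 53.3% of all 15882 genes tested changed (26.9% upward, 26.4% downward), a share close to that of the neighbours. Upward calls made up 44.7% of the neighbours and 39.4% of the other protein-coding genes of chromosome 19. The median log2 fold change was 0.41 over the neighbours, 0.23 over those other genes of the chromosome and 0.02 over all genes. The groups of libraries did not overlap for 17 neighbours upward and 4 downward (55.3%). Of all genes 59.5% had groups that did not overlap, 30.1% higher and 29.4% lower.

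Genome-wide, GC-rich genes were higher in the HEK293T libraries labelled SNRPD2KO. The Spearman correlation of log2 fold change with GC content of the longest transcript was 0.36 across 15406 genes. The tested neighbours are GC-rich, with a median of 60.1% against 47.9% for all genes. The other protein-coding genes of chromosome 19 are GC-rich as well, with a median of 58.7%. With the GC trend removed, the HEK293T median of the neighbours was 0.087, and 12 rose and 6 fell. The median of the other protein-coding genes of chromosome 19 went from 0.23 to 0.056. In HuCCT1 the genome-wide correlation was -0.02. There the median of the neighbours was 0.36 with the trend removed, 17 rising and 6 falling, and that of the other chromosome 19 genes was 0.074. The share of all genes called with the trend removed is not given, so these counts describe the neighbours alone. Among the neighbours alone, GC content and log2 fold change had a Spearman correlation of -0.19 in HEK293T.

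By distance, the HEK293T SNRPD2KO medians were 0.69 within 100 kb (5 rose, 1 fell of 8), 0.37 between 100 and 300 kb (6 rose of 13), 0.50 between 300 and 600 kb (3 rose of 6) and 0.00 beyond 600 kb (3 rose, 2 fell of 11). The correlation with log10 distance was -0.31 over 38 genes. CLASRP and PRKD2, the 2 that fell beyond 600 kb, lie on opposite sides of SNRPD2. The medians of the sides were 0.42 at lower coordinates (10 rose, 1 fell of 22) and 0.34 at higher ones (7 rose, 2 fell of 16).

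The PUS7KO libraries, whose labelled target lies elsewhere, were compared with Ctrl in the same cells. There 13 of 38 neighbours rose and 5 fell (47.4%), where 49.4% of all genes changed (25.6% upward, 23.8% downward). The median was 0.14, against 0.15 over the other protein-coding genes of chromosome 19. It was 0.36 within 100 kb (4 rose, 1 fell of 8), 0.16 between 100 and 300 kb (4 rose, 1 fell of 13), 0.45 between 300 and 600 kb (3 rose of 6) and -0.12 beyond 600 kb (2 rose, 3 fell of 11). The correlation with log10 distance was -0.28. With a first limit of 50 kb, which leaves 5 neighbours in the nearest class, its median was 1.34 with PUS7KO and 1.24 with SNRPD2KO, so that the order of the knockouts near SNRPD2 turns with the limit. PUS7KO and SNRPD2KO were set against the same 3 Ctrl libraries, and the 2 comparisons are not independent.

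SNRPD2KO set against PUS7KO directly does not use the Ctrl libraries in its fold change. Here 3 of 38 neighbours differed (7.89%), all higher with SNRPD2KO, where 4.77% of all genes differed (1.57% higher, 3.2% lower). With edgeR 6 neighbours were higher and 0 lower at an unadjusted p below 0.05, and DESeq2 and limma voom called 3 higher and 0 lower after adjustment. The 3 were FOSB, an AP-1 transcription factor (0.66 ± 0.16, adjusted p = 0.032), DMWD, a WD repeat gene next to DMPK (0.55 ± 0.13, adjusted p = 0.028), and IRF2BP1, a partner of the interferon regulatory factor IRF2 (0.49 ± 0.12, adjusted p = 0.035). FOSB had 11.8, 11.99 and 10.6 CPM with SNRPD2KO, against 6.88, 7.18 and 7.60 CPM with PUS7KO. Against Ctrl, FOSB rose with SNRPD2KO (0.82, adjusted p = 0.0006) and did not pass with PUS7KO (0.16, adjusted p = 0.48). DMWD was at 0.01 (adjusted p = 0.96) with SNRPD2KO and fell with PUS7KO (-0.545, adjusted p = 0.0028). IRF2BP1 passed against Ctrl with neither SNRPD2KO (0.24, adjusted p = 0.12) nor PUS7KO (-0.25, adjusted p = 0.11). All 3 calls between the knockouts were lost with the GC trend removed and without SNRPD2KO replicate 1 or 2 or PUS7KO replicate 1 or 2. The medians by class were 0.19, 0.22, 0.16 and 0.21 from near to far, and the correlation with log10 distance was 0.03.

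**Figure D2:**
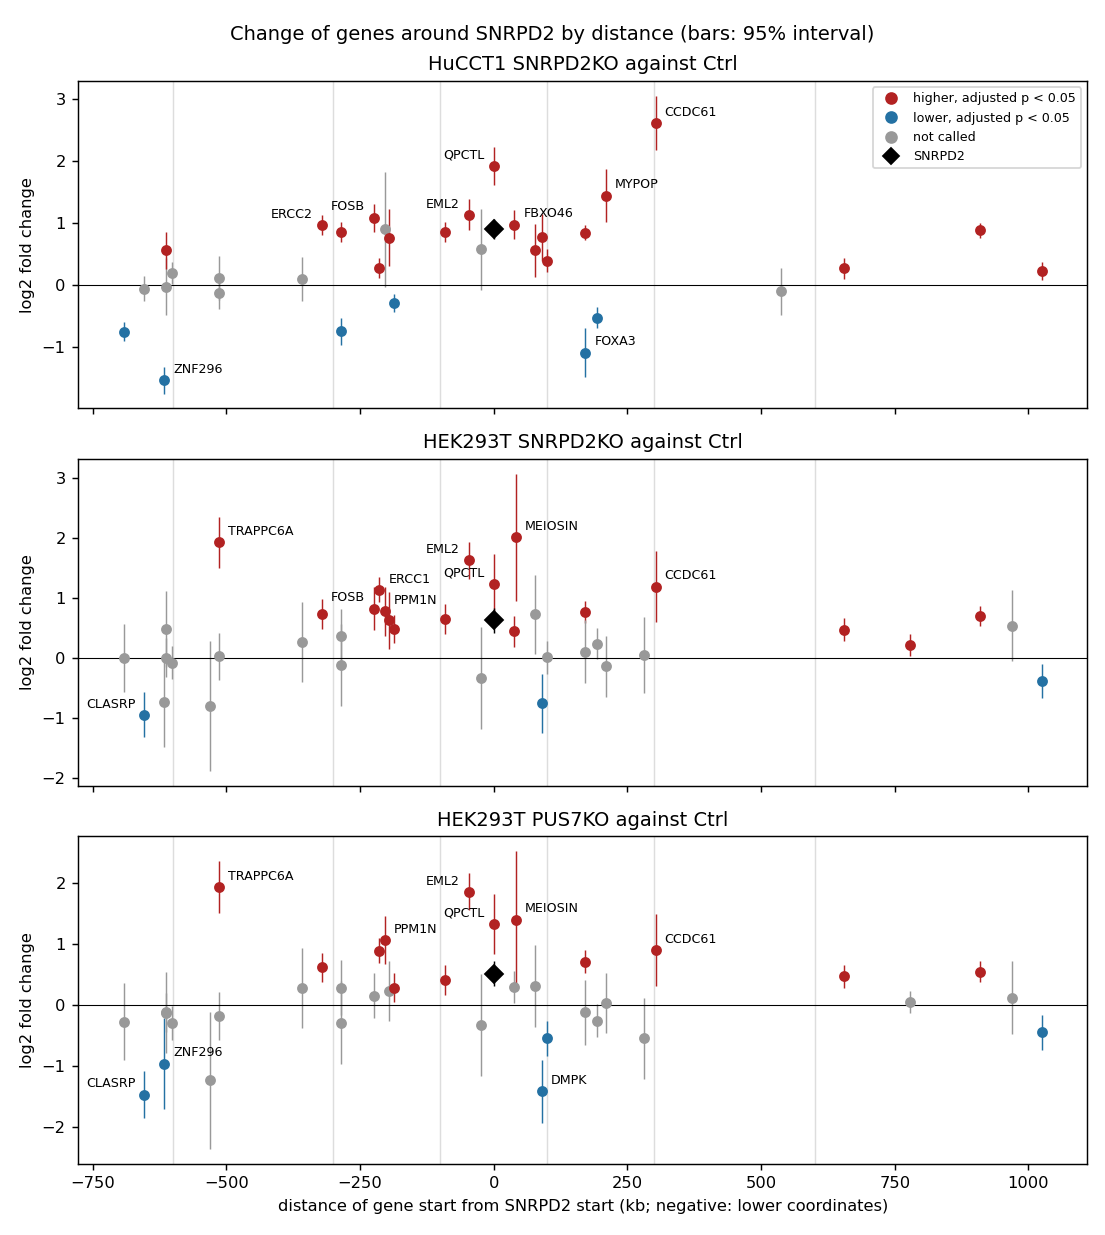
Log2 fold change of each tested neighbour (circles) and of SNRPD2 (diamonds) against the distance of its start from the SNRPD2 start in kb, in HuCCT1 SNRPD2KO, HEK293T SNRPD2KO and HEK293T PUS7KO against Ctrl; bars are 95% intervals and grey lines the limits at 100, 300 and 600 kb. Within 100 kb the medians are 0.86, 0.69 and 0.36, and raised genes also stand beyond 600 kb in each panel; with a first limit of 50 kb the medians are 1.05, 1.24 and 1.34.

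The 33 neighbours tested in both lines were next set side by side for SNRPD2KO against Ctrl. Of these 12 rose in both lines (36.4%, where 12.6% of all genes tested in both did so, and 141 of 689 other protein-coding genes of chromosome 19), 3 changed in opposite directions (9.09%, where 12% of all genes did so), 10 changed in HuCCT1 alone, 3 in HEK293T alone and 5 in neither. With edgeR 0 fell in both lines after adjustment and 1 at unadjusted p below 0.05, and DESeq2 and limma voom also gave 0 after adjustment. Of all genes 11.6% fell in both. Removal of the GC trend changed these calls. ZNF296 then passed the threshold downward in each line (log2 fold changes of -1.69 for HuCCT1 and -1.145 for HEK293T). RTN2 and FBXO46, raised in both lines before, no longer passed in HEK293T. DMWD became a neighbour with opposite calls, at 0.26 for HuCCT1 and -0.38 for HEK293T. VASP and PRKD2, with opposite calls before, each kept a call in only 1 line. The lines share no library. Across the 33 neighbours the Spearman correlation of the log2 fold changes was 0.50, beside 0.41 for the other protein-coding genes of chromosome 19 and 0.25 for all genes, again as a description.

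Ranked by the smaller of their 2 changes, the first 5 of the 12 were QPCTL, CCDC61, EML2, FOSB and SYMPK. CCDC61 (chr19:45995461-46021318, plus strand), a centrosomal coiled-coil protein whose gene starts 302.892 kb away, gave the largest fold of all neighbours in HuCCT1. It had 7.17, 7.06 and 6.93 CPM in HuCCT1 libraries labelled SNRPD2KO, against 1.02, 1.10 and 1.35 CPM in HuCCT1 Ctrl libraries. HEK293T gave 3.76, 3.08 and 3.84 CPM in libraries labelled SNRPD2KO and 3.15, 2.67 and 3.02 CPM in PUS7KO libraries, against 1.72, 1.83 and 1.14 CPM in Ctrl libraries. The log2 fold change was 2.61 ± 0.20 (adjusted p = 8.7e-07) in HuCCT1 and 1.19 ± 0.28 (adjusted p = 0.0017) in HEK293T with SNRPD2KO, and the lines differed by 1.38 ± 0.35 (adjusted p = 0.0037). SYMPK, the scaffold of the complex that cuts and polyadenylates pre-mRNA, had 101, 96.1 and 102 CPM in HuCCT1 libraries labelled SNRPD2KO, against 57.1, 54.5 and 55.3 CPM in HuCCT1 Ctrl libraries. Its log2 fold change was 0.85 ± 0.06 (adjusted p = 4.1e-07) in HuCCT1 and 0.76 ± 0.09 (adjusted p = 2.1e-06) in HEK293T with SNRPD2KO. The lines differed by 0.04 ± 0.10 (adjusted p = 0.78), or by 0.26 (adjusted p = 0.037) with the GC trend removed. In HEK293T SYMPK also rose with PUS7KO (0.72, adjusted p = 5.1e-06). FOSB lies inside the ERCC1 span on the opposite strand and shares 0 exon bases with it. It had 43.2, 34.4 and 42.5 CPM in HuCCT1 libraries labelled SNRPD2KO, against 20.3, 18.4 and 17.9 CPM in HuCCT1 Ctrl libraries, and rose by 1.09 ± 0.10 (adjusted p = 4.7e-06) there and by 0.82 ± 0.17 (adjusted p = 0.0006) in HEK293T with SNRPD2KO. Its PUS7KO value was 0.16 ± 0.17 (adjusted p = 0.48).

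The response to SNRPD2KO differed between the lines for 14 of the 39 neighbours in that fit (35.9%, where 40.7% of all genes differed). Of the 39, 33 were tested in both lines, and all 14 were among those 33. The rest passed the low-count filter in 1 line alone, with few or no counts in the other. Of the 14, 6 were upward, HuCCT1 above HEK293T (19.8% of all genes), and 8 downward (20.9%). Among these the largest difference downward was that of TRAPPC6A (chr19:45162928-45178237, minus strand), a subunit of the TRAPP complex that tethers vesicles. The gene lies inside the span of MARK4 on the opposite strand, with 0 shared exon bases. It had 5.79, 7.36 and 6.42 CPM in HuCCT1 libraries labelled SNRPD2KO, against 6.35, 6.52 and 5.16 CPM in HuCCT1 Ctrl libraries, groups that overlap. In HEK293T it had 23.7, 25.2 and 20.5 CPM with SNRPD2KO and 23.9, 19.7 and 26.3 CPM with PUS7KO, against 8.90, 4.45 and 4.77 CPM in Ctrl, every knockout library above every Ctrl library. TRAPPC6A was at 0.11 ± 0.16 (adjusted p = 0.57) in HuCCT1 and rose by 1.92 ± 0.20 (adjusted p = 8.6e-07) in HEK293T, a difference of -1.86 ± 0.29 (adjusted p = 6e-05).

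MYPOP, a Myb-related repressor of transcription, had the largest upward difference that passed. It had 11.7, 9.73 and 8.65 CPM in HuCCT1 libraries labelled SNRPD2KO, against 4.64, 3.47 and 2.92 CPM in HuCCT1 Ctrl libraries, all higher with SNRPD2KO. In HEK293T it had 4.83, 3.30 and 3.92 CPM in libraries labelled SNRPD2KO, against 3.43, 4.57 and 5.34 CPM in Ctrl libraries, which overlap. The log2 fold changes were 1.44 ± 0.19 (adjusted p = 7.6e-05) in HuCCT1 and -0.14 ± 0.24 (adjusted p = 0.64) in HEK293T, and the difference 1.54 ± 0.32 (adjusted p = 0.00084). DMPK followed with 1.48 ± 0.28 (adjusted p = 0.00038). VASP, an actin regulator, and PRKD2, protein kinase D2, were the other 2 neighbours that changed in opposite directions. VASP fell in HuCCT1 (-0.29 ± 0.06, adjusted p = 0.0026) and rose in HEK293T (0.48 ± 0.11, adjusted p = 0.0016), where the call was lost with the GC trend removed. PRKD2, the farthest neighbour, rose in HuCCT1 (0.23 ± 0.07, adjusted p = 0.015) and fell in HEK293T (-0.39 ± 0.13, adjusted p = 0.023). Its HEK293T call was lost without SNRPD2KO replicate 2 (adjusted p = 0.079), SNRPD2KO replicate 3 (0.07) or Ctrl replicate 1 (0.08), and its HuCCT1 call without Ctrl replicate 3 (0.068) or with the GC trend removed (0.073).

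**Figure D3:**
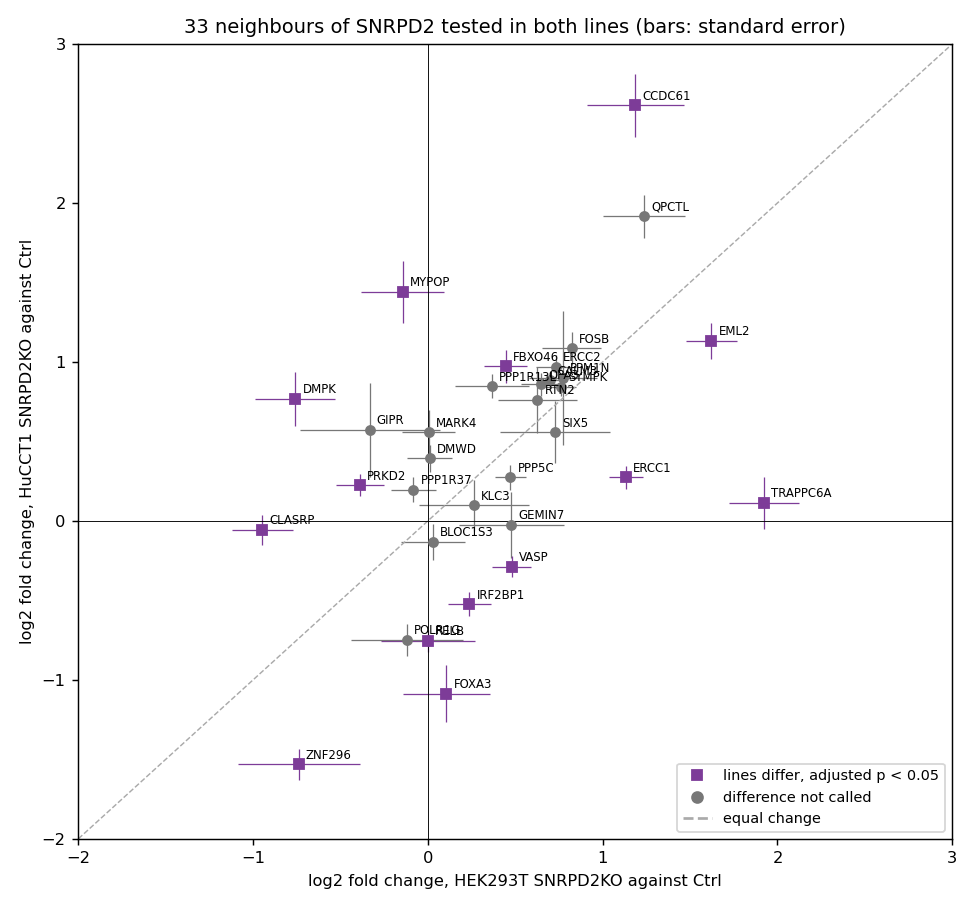
Log2 fold change of SNRPD2KO against Ctrl in HuCCT1 (vertical axis) and in HEK293T (horizontal axis) for the 33 neighbours tested in both lines; bars are standard errors, squares mark neighbours whose response differed between the lines and the dashed line marks equal change. QPCTL, EML2, CCDC61, FOSB and SYMPK stand in the quadrant raised in both, and TRAPPC6A far to the right of the dashed line.

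The transcription factors of the stretch went in both directions in HuCCT1, where all 7 tested changed, 3 upward and 4 downward, where 57.2% of all genes changed. ZNF296, a zinc finger protein, fell the most. It had 15.5, 12.4 and 15.1 CPM in HuCCT1 libraries labelled SNRPD2KO, against 44.1, 40.5 and 39.8 CPM in HuCCT1 Ctrl libraries, a log2 fold change of -1.53 ± 0.10 (adjusted p = 2.8e-07). RELB, the NF-kB subunit of the noncanonical pathway, had 31.5, 29.1 and 33.3 CPM in HuCCT1 libraries labelled SNRPD2KO, against 53.6, 52.6 and 52.1 CPM in HuCCT1 Ctrl libraries, and fell by 0.75 on the log2 scale (adjusted p = 3.7e-06). These libraries did not overlap for either gene. FOXA3, a forkhead factor of liver and gut, fell (-1.09 ± 0.18, adjusted p = 0.00033), as did IRF2BP1 (-0.53 ± 0.08, adjusted p = 0.00012). In HEK293T 1 of the 7, FOSB, rose and the rest did not pass the test, where 53.3% of all genes changed. Without HEK293T SNRPD2KO replicate 3, IRF2BP1 (0.39, adjusted p = 0.0077) and SIX5 (1.02, adjusted p = 0.009) also rose there, so that the count was 3, and without Ctrl replicate 3 SIX5 passed too (0.91, adjusted p = 0.049). With the GC trend removed ZNF296 fell (adjusted p = 0.014). RELB was at a ratio of 1.00 to Ctrl and ZNF296 at -0.74 ± 0.35 (adjusted p = 0.085) there. HEK293T ZNF296 levels were 0.990 to 1.37 CPM in libraries labelled SNRPD2KO, against 1.72 to 2.17 CPM in Ctrl libraries. The difference between the lines passed the threshold for RELB (-0.79 ± 0.24, adjusted p = 0.015), FOXA3 (-1.24 ± 0.30, adjusted p = 0.0033), IRF2BP1 (-0.81 ± 0.15, adjusted p = 0.00032) and ZNF296 (-0.84 ± 0.29, adjusted p = 0.028). The call of RELB was lost without HEK293T SNRPD2KO replicate 2 (adjusted p = 0.058) or Ctrl replicate 3 (0.062) and with the GC trend removed (0.059). That of ZNF296 was lost without HEK293T SNRPD2KO replicate 3 (adjusted p = 0.18), HEK293T Ctrl replicate 1 (0.072) or HuCCT1 SNRPD2KO replicate 2 (0.058) and with the GC trend removed (0.12).

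Of the 4 RNA processing genes tested in HuCCT1, 1 rose (SYMPK) and 1 fell (POLR1G, a subunit of RNA polymerase I). There 28.8% of all genes rose and 28.4% fell. In HEK293T, of 5 tested, 1 rose (SYMPK) and 1 fell, where 26.9% of all genes rose and 26.4% fell. The one that fell was CLASRP, an SR-related protein that binds the splicing kinase CLK4. It had 6.33, 5.72 and 6.57 CPM with SNRPD2KO and 4.87, 4.26 and 3.85 CPM with PUS7KO, against 9.86, 11.99 and 14.2 CPM in Ctrl, with no overlap. Its log2 fold changes were -0.95 ± 0.18 (adjusted p = 0.00026) and -1.47 ± 0.18 (adjusted p = 6.6e-06), and the HuCCT1 value was -0.06 ± 0.09 (adjusted p = 0.63). GEMIN7, a subunit of the SMN complex that loads Sm proteins onto small nuclear RNAs, was at -0.02 ± 0.21 (adjusted p = 0.93) in HuCCT1 and 0.48 ± 0.30 (adjusted p = 0.19) in HEK293T, with groups that overlap.

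Both DNA repair genes rose in both lines, as did 12.6% of all genes tested in both. ERCC2, the XPD helicase of TFIIH, had 56.9, 53.4 and 61.3 CPM in HuCCT1 libraries labelled SNRPD2KO, against 30.6, 29.6 and 27.2 CPM in HuCCT1 Ctrl libraries. It rose by 0.97 ± 0.08 (adjusted p = 1.1e-06) in HuCCT1 and by 0.73 ± 0.11 (adjusted p = 5.2e-05) in HEK293T with SNRPD2KO. ERCC2 also rose in HEK293T with PUS7KO (0.62, adjusted p = 0.00031). ERCC1, which forms a nuclease with XPF, had 47.0, 44.6 and 47.0 CPM in HuCCT1 libraries labelled SNRPD2KO, against 41.4, 36.6 and 36.6 CPM in HuCCT1 Ctrl libraries. In HEK293T it had 45.7, 48.0 and 40.4 CPM with SNRPD2KO and 38.6, 37.6 and 37.3 CPM with PUS7KO, against 20.9, 20.1 and 20.0 CPM in Ctrl. The change was 0.27 ± 0.07 (adjusted p = 0.0065) in HuCCT1 and 1.13 ± 0.10 (adjusted p = 1.1e-07) in HEK293T, a difference of -0.90 ± 0.12 (adjusted p = 1.2e-05). ERCC1 shares 1593 of its 4351 exon bases with POLR1G, and ERCC2 535 with KLC3, all on opposite strands. The kit keeps the strand, but whether the counting used it is not given in the sources used here, so reads of these partners cannot be told apart.

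Of the genes for kinases, phosphatases and their regulators 5 of 7 rose in HuCCT1, while in HEK293T 2 rose and 2 fell of 7. Of the 5, PRKD2 did not pass with the GC trend removed (adjusted p = 0.073). Of all genes 28.8% rose and 28.4% fell in HuCCT1, and 26.9% rose and 26.4% fell in HEK293T, and the other counts by role below have the same background. In HEK293T PPM1N, a metal-dependent phosphatase, rose (0.77 ± 0.19, adjusted p = 0.0029), with 7.51 to 9.24 CPM in libraries labelled SNRPD2KO, against 3.75 to 5.82 CPM in Ctrl libraries. With the GC trend removed its value was 0.46 (adjusted p = 0.052). PPM1N shares 132 exon bases with RTN2 on the other strand. CALM3, a calmodulin gene 908.505 kb away, rose in both lines. It had 415, 392 and 409 CPM in HuCCT1 libraries labelled SNRPD2KO, against 232, 218 and 209 CPM in HuCCT1 Ctrl libraries, and its log2 fold change was 0.88 ± 0.05 (adjusted p = 2.3e-07) in HuCCT1 and 0.70 ± 0.08 (adjusted p = 2.3e-06) in HEK293T with SNRPD2KO. CALM3 also rose in HEK293T with PUS7KO (0.55, adjusted p = 3.4e-05). Genes of the cytoskeleton, cilium, trafficking and meiosis gave 3 raised and 1 lowered of 7 in HuCCT1 and 6 raised of 8 in HEK293T. Of those 6, RTN2 (adjusted p = 0.31) and VASP (0.11) did not pass with the GC trend removed. RTN2 also did not pass without HEK293T SNRPD2KO replicate 2 (adjusted p = 0.11) or Ctrl replicate 2 (0.13). The group listed as receptors and signalling is mixed, and none of its raised genes encodes a receptor. In HuCCT1 4 of 6 rose (QPCTL, FBXO46, DMWD and CALM3). In HEK293T 3 of 6 rose (QPCTL, FBXO46 and CALM3), of which FBXO46 did not pass with the GC trend removed. GIPR, the tested receptor gene of the group, did not pass in either line.

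Head-to-head partners did not always move together. Besides SNRPD2 and QPCTL, 3 pairs start within 1 kb, and the distance between the starts is 295 bases for PPP1R13L and POLR1G, 547 for TRAPPC6A and BLOC1S3 and 795 for SYMPK and FOXA3. SNRPD2 and QPCTL rose together in both lines. PPP1R13L, which encodes the p53 inhibitor iASPP, had 131, 109.8 and 112 CPM in HuCCT1 libraries labelled SNRPD2KO, against 66.6, 65.8 and 63.4 CPM in HuCCT1 Ctrl libraries. POLR1G, across the shared window printed above, had 9.40, 9.68 and 10.6 CPM in HuCCT1 libraries labelled SNRPD2KO, against 17.4, 15.8 and 16.6 CPM in HuCCT1 Ctrl libraries. In HuCCT1 PPP1R13L rose (0.85 ± 0.07, adjusted p = 2.4e-06) and POLR1G fell (-0.75 ± 0.10, adjusted p = 7.5e-05), and in HEK293T neither passed the test, though without Ctrl replicate 1 PPP1R13L did (0.57, adjusted p = 0.049). SYMPK rose and FOXA3 fell in HuCCT1, and SYMPK alone rose in HEK293T, with FOXA3 at 0.11 ± 0.25 (adjusted p = 0.74). TRAPPC6A rose in HEK293T beside BLOC1S3, a subunit of the BLOC-1 complex of lysosome-related organelles, at 0.03 ± 0.18 (adjusted p = 0.91). No test of the difference between partners was made.

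**Figure D4:**
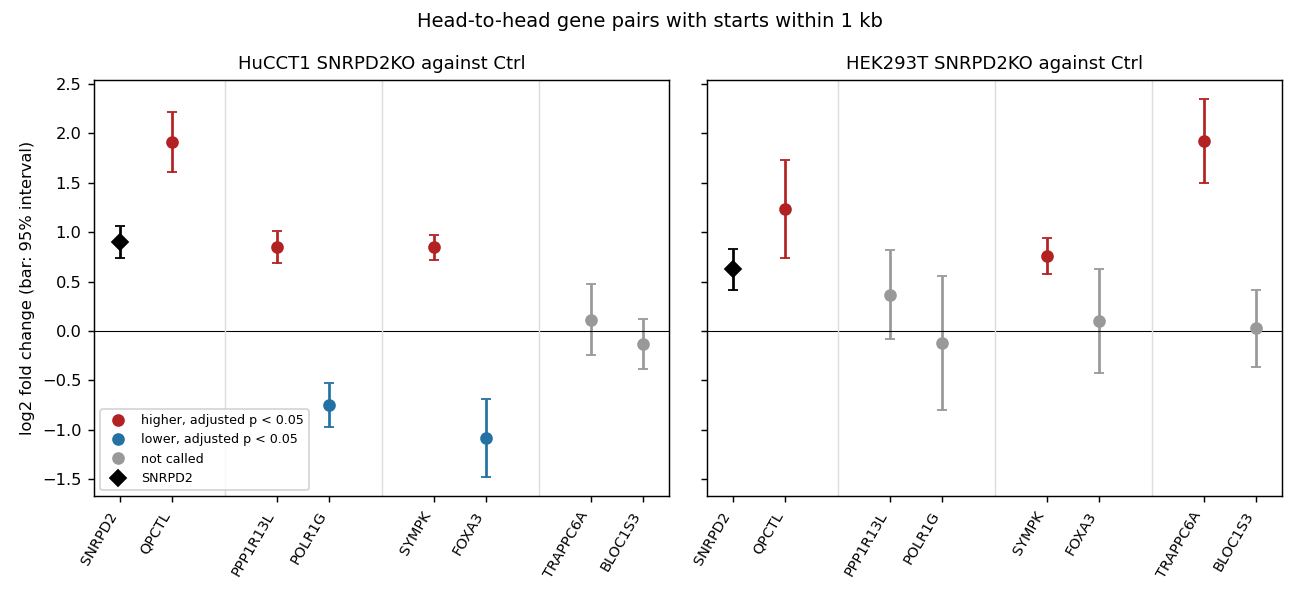
Log2 fold change with 95% interval of SNRPD2KO against Ctrl for the 4 head-to-head pairs with starts within 1 kb, HuCCT1 in the left panel and HEK293T in the right. In HuCCT1 the partners of 2 pairs both passed the test in opposite directions. These are PPP1R13L at 0.85 beside POLR1G at -0.75, and SYMPK at 0.85 beside FOXA3 at -1.09. TRAPPC6A at 0.11 and BLOC1S3 at -0.13 also stand on opposite sides of 0, but neither passed the test.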

How the data were processed

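Total RNA of 9 HEK293T and 6 HuCCT1 libraries was sequenced after depletion of ribosomal RNA with a stranded kit, per the labels' protocols. The authors deposited 1 table of raw counts per gene for each line, with gene symbol, type and hg38 coordinates. The submitters' processing notes name cutadapt 4.2, HISAT2 2.2.1 and RSEM without roles, and the annotation release and strand setting are not given in the sources used here. The deposited counts are whole numbers. Groups came from the sample labels, and each table column was matched to its sample through the column name that the labels give.

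Each line was fitted on all its genes with edgeR 4.0.16 in R 4.3.3 (TMM factors, low-count filter with minimum count 10 and minimum total 15, quasi-likelihood F test, two-sided), with 15882 genes tested in HEK293T and 15007 in HuCCT1. The difference between lines is the interaction in 1 fit of 12 libraries (17617 genes). The biological coefficient of variation was 10.8%, 10.1% and 10.5%. CPM use TMM-scaled library sizes, and counts of different genes were not divided by gene length. Intervals are 95% from the fit, and the floor is 3 counts, for counting error only. Replicates differed beyond counting noise (chi-square per degree of freedom 3.57 to 14.6), so none was counted as a repeat. The scripts were tested on simulated data.

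Distance runs from start to start. Classes end at 100, 300 and 600 kb. GC content is that of the longest transcript of each gene in GENCODE 29 and was found for all 50 neighbours. Promoter windows are from RefSeq (GRCh38.p14), found for 42 of them.

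Named genes are all neighbours within 100 kb, up to 5 per direction with the largest change in each comparison and between the lines, and the 5 with the largest change shared by both lines. Neighbours outside this rule (ERCC2, CALM3, GEMIN7, PPP1R13L, BLOC1S3 and those listed for their role, overlap or low counts) were named after their values were seen. The neighbours, roles and marker lists were chosen with earlier results of these data known. Alternatives were RLE and upper quartile factors, no filter, at least 1 CPM in 3 libraries, DESeq2 1.42.0, limma voom (limma 3.58.1), a test against 1.5-fold, adjusted p under 0.01, a replicate block, removal of the GC trend, 2 groups alone, other distances and each library left out.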

Additional observations from a re-analysis of the deposited data

Results flagged for a closer look

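For 14 neighbours the log2 fold change of SNRPD2KO against Ctrl differed between the lines in edgeR's test of that difference (HuCCT1 minus HEK293T). The difference was above 0 for MYPOP (1.54), DMPK (1.48), CCDC61 (1.38), CLASRP (0.84), PRKD2 (0.57) and FBXO46 (0.48). It was below 0 for TRAPPC6A (-1.86), FOXA3 (-1.24), ERCC1 (-0.90), ZNF296 (-0.84), VASP (-0.81), IRF2BP1 (-0.81), RELB (-0.79) and EML2 (-0.54). The HuCCT1 libraries are deeper than the HEK293T libraries, and depth and cell line cannot be told apart here. With the trend of fold change on GC content removed 11 of the 14 kept their call, and RELB, ZNF296 and EML2 lost it. Leaving out single libraries ended the call for EML2 (adjusted p up to 0.14 in edgeR's test), FBXO46 (up to 0.083), ZNF296 (up to 0.18) and RELB (up to 0.062).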

How the results depend on the processing

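With RLE or upper quartile factors, at least 1 CPM in 3 libraries, DESeq2 or limma voom, the numbers of neighbours higher and lower in each comparison stayed within 1.5 times their values; counts by role and by distance class were not recomputed. Lower in both lines at unadjusted p below 0.05 was 1 neighbour with edgeR and 0 with DESeq2 or limma voom. Replicate numbers do not pair the samples (correlation of same-numbered deviations -0.112 to 0.0466). A replicate block kept 25 of 25 calls in HuCCT1, 19 of 20 in HEK293T SNRPD2KO, 17 of 18 in PUS7KO, 3 of 3 between the knockouts and 13 of 14 between the lines. Where values moved, the cause was not tested unless the setting itself tests fewer genes or samples.

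With the GC trend removed, the median log2 fold change of the neighbours was 0.36 in HuCCT1, 0.087 in HEK293T SNRPD2KO, 0.048 in PUS7KO, 0.047 between the knockouts and 0.31 between the lines. In HEK293T 6 then fell with SNRPD2KO and 8 with PUS7KO, 0 were higher with SNRPD2KO than with PUS7KO (3 at unadjusted p below 0.05), and between the lines 15 were higher and 5 lower. DMWD turned to -0.38 in HEK293T SNRPD2KO. Without a low-count filter the median was 0.30 in HuCCT1, 0.24 in HEK293T SNRPD2KO and -0.035 in PUS7KO, where 3 fell, and with limma voom the PUS7KO median was 0.18. Against 1.5-fold, 11 rose and 3 fell in HuCCT1, 7 and 1 in HEK293T SNRPD2KO, 5 and 2 in PUS7KO, 0 were higher between the knockouts, and between the lines 3 were higher and 3 lower. At adjusted p under 0.01, 1 fell in HEK293T SNRPD2KO, 3 in PUS7KO, 0 were higher between the knockouts and 5 lower between the lines. With the 2 knockouts alone in the fit 1 was higher. No share over all genes is given for the counts of this section, which describe the neighbours alone.

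By distance, a first limit of 50 kb gave a nearest median of 1.05 in HuCCT1, 1.24 in HEK293T SNRPD2KO, 1.34 in PUS7KO and -0.011 between the knockouts. Distance to the nearest edge gave 0.81 in HuCCT1 with a correlation of -0.43. Without genes that overlap any other gene the correlation was -0.11 in HuCCT1 (7 genes), -0.52 in HEK293T SNRPD2KO (10 genes), -0.44 in PUS7KO and -0.37 between the knockouts. The nearest class then held MEIOSIN alone (2.01, 1.40 and 0.61) and no gene in HuCCT1.

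Leaving out each library in turn, HuCCT1 had 17 to 20 higher, 6 to 7 lower and a median of 0.36 to 0.51. HEK293T SNRPD2KO had 15 to 19 higher, 1 to 3 lower and 0.27 to 0.46, with 1 lower without SNRPD2KO replicate 2. PUS7KO had 11 to 14 higher, 3 to 5 lower and 0.069 to 0.18, with 3 lower without PUS7KO replicate 1. Between the knockouts 0 to 4 were higher, 0 to 0 lower and the median 0.16 to 0.24, and between the lines 5 to 8 were higher, 6 to 8 lower and the median -0.01 to 0.14. For single genes, 1050 of these values kept their side of the threshold, 56 lost and 13 gained a call. Under all other settings 1210 kept it, 81 lost and 11 gained a call, and 1 turned with a call. Values without a call can change sign among those that kept their side, as FOXA3 (-0.20) and IRF2BP1 (-0.18) did in HEK293T SNRPD2KO with the GC trend removed.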
